A study of Drosophila melanogaster with 6 samples.

Results

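Exons that sit alone between long introns were followed in the indirect flight muscle (IFM) of Drosophila melanogaster pupae after muscle-specific RNAi of SF1 or of Hrb87F. An exon was taken when its counting bin was wider than 51 nt, was neither the first nor the last bin of its gene, lay 1000 nt or more from the neighbouring bin of the same gene on both sides, and had 10 or more counts in at least 2 libraries. The rule gave 1804 exons in 956 genes, out of 77774 exon bins in 16428 genes. Before the minimum of counts, 2300 bins met it. Exon numbers (E001, E002 and so on) are those of the deposited bins and follow the chromosome, so that they run against transcription in genes on the minus strand. A gap is the distance to the next bin of the gene, which is the intron where no other exon lies between. For the first or last exon of a transcript, the gap on the outer side is no intron of that transcript. Exons between long introns, below, means all exons that met the rule, these included.

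SF1 is the protein that recognises the branch point of an intron in the first step of spliceosome assembly, and Hrb87F is a Drosophila homolog of the hnRNP A proteins, which bind pre-mRNA and influence the choice of splice sites. In a gene with short introns the splice sites are thought to be paired across the intron. Those of an internal exon between long introns are thought to be paired across the exon itself. Exons with long gaps on both sides can carry an alternative transcription start, a 5′-UTR or a tissue-specific segment of a coding sequence. Flight muscle is fibrillar muscle, and many of its sarcomere and calcium-handling genes are spliced in a form particular to that fiber type.

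SF1-IR was the genotype Mef2-Gal4 / SF1-RNAi (GD5176), Hrb87F-IR was Mef2-Gal4 / Hrb87F-RNAi (TRiP.JF01757), and WT was Mef2-Gal4 / +. Each group had 2 libraries, each from IFM pooled over many pupae and dissected at 72 h after puparium formation (APF), with the crosses kept at 27 °C. All 3 groups carried the Mef2-Gal4 driver, which is active in all muscles, and each knockdown used 1 hairpin. The files hold reads counted per exon bin of poly A-selected mRNA-Seq libraries.

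The libraries held 63393347 to 72057010 counts over all bins. SF1 itself had 25.6 and 19.4 CPM (TMM-scaled counts relative to the size of the library) in SF1-IR, against 24.6 and 29.9 CPM in WT, and a lower level was not detectable (log2 fold change −0.28, adjusted p = 0.473), so that SF1-IR below means the libraries labelled so. Hrb87F had 14.8 and 18.1 CPM in Hrb87F-IR and 29.8 and 30.5 CPM in WT (log2 fold change −0.87, adjusted p = 0.0347). The summed level of 10 muscle markers was 207340.9 to 217964.3 CPM in SF1-IR, 200641.3 to 221217.5 CPM in Hrb87F-IR and 276698.2 to 307599.7 CPM in WT, and none of them passed the gene test. SF1-IR replicate 2 and WT replicate 1 held more RNA of 8 testis genes (49.5 and 55.7 CPM summed) than the other 4 libraries (2.39 to 12.7 CPM). Syp E002, an exon of an RNA-binding protein gene chosen here after its values were seen, had 1 and 136 counts in SF1-IR, against 2 and 12 in Hrb87F-IR and 72 and 7 in WT, and was thus high in the same libraries. The part of that RNA in the other results was not tested, but the numbers of calls over all these exons and over their genes were recomputed without both libraries.

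The exons were 52 to 5560 nt wide, with a median of 238 nt, and the shorter of the 2 flanking gaps had a median of 2261.5 nt and reached 169882 nt. Of the 956 genes, 525 held 1 such exon and 431 held several, at most 11. In the transcripts of the deposited annotation, 374 were the first exon of a transcript and 12 a last exon. Of the internal ones, 270 were skipped by a transcript, 232 lay outside the span of some transcripts, and 916 were in every transcript of the gene. By the later annotation release BDGP6.54, 743 were wholly coding, 620 held coding sequence and 5′-UTR, 374 held only 5′-UTR, and 36 held coding sequence and 3′-UTR. Many of these exons thus stood where a transcript begins. A width divisible by 3 was found for 34.5% of all these exons and for 45.9% of the skipped ones.

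The use of an exon was measured as its share of all bin counts of its gene, and its change as the log2 fold change of the exon relative to the other exons of the gene (edgeR's diffSpliceDGE, log2 use below). An exon was called at an unadjusted p under 0.01, the threshold of the study, and the Benjamini-Hochberg adjusted p over all tested bins is given beside it. Of the 1804 exons, 1780 could be tested and 1302 had 10 or more counts in all 6 libraries. Over those 1302, the use of an exon differed between the replicates of a group by a median of 0.312 on the log2 scale in SF1-IR, 0.290 in Hrb87F-IR and 0.316 in WT. The means of SF1-IR and WT differed by a median of 0.253 and those of Hrb87F-IR and WT by 0.264. The first values set single libraries side by side and the second means of 2, so that they are not on 1 footing. Nothing in the labels says that replicates came from separate crosses, so p-values measure the spread between these libraries only.

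In SF1-IR, 31 of the 1780 exons were called against WT (1.74%), in 26 genes, beside 0.972% of all tested bins. Use was higher in SF1-IR for 24 of them, where 0.645% of all bins were called higher, and lower for 7, where 0.327% were called lower. An adjusted p under 0.05 was reached by 10. A fit without SF1-IR replicate 2 and WT replicate 1 leaves both groups without replicates. Some of the 31 were not called in it while other exons were, so that it does not show which of the 31 hold. Restricted to exons with 10 or more counts in every library, which cannot have entered through 1 group alone, 23 calls were left, with log2 use between −2.10 and 2.77. The median log2 use over all 1780 was −0.002, beside 0.003 over all bins. Exons with gaps of at most 100 nt on both sides were called in 22 of 10152 cases (0.217%), and all interior bins of the same width and count in 387 of 35742. Exons between long introns also spread more, with a median absolute log2 use of 0.314, against 0.190 for exons with short gaps. They also had fewer counts (a median of 51.4 per library, against 106.8), and the part of that in the contrast was not tested.

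The calls stood mostly at alternative exons. Of the 31 exons, 25 were absent from at least 1 transcript of their gene and 24 held 5′-UTR sequence, where 918 of all 1804 were in every transcript and 997 held 5′-UTR sequence. First exons of a transcript gave 14 calls among 364 tested, 13 of them used more in SF1-IR, skipped exons gave 7 calls among 264, and internal exons outside some transcripts gave 3 among 229. Exons in every transcript gave 6 calls among 911. Among all interior bins with the same minimums, first exons were called in 51 of 2761 cases, skipped exons in 196 of 4209, internal exons outside some transcripts in 49 of 2215, and exons in every transcript in 43 of 23284. The share of long-gap exons called was thus higher than that of all interior bins for first exons and for exons in every transcript, and lower for skipped exons and for those outside some transcripts. These shares are descriptions, and the differences between them were not tested.

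**Figure D1:**
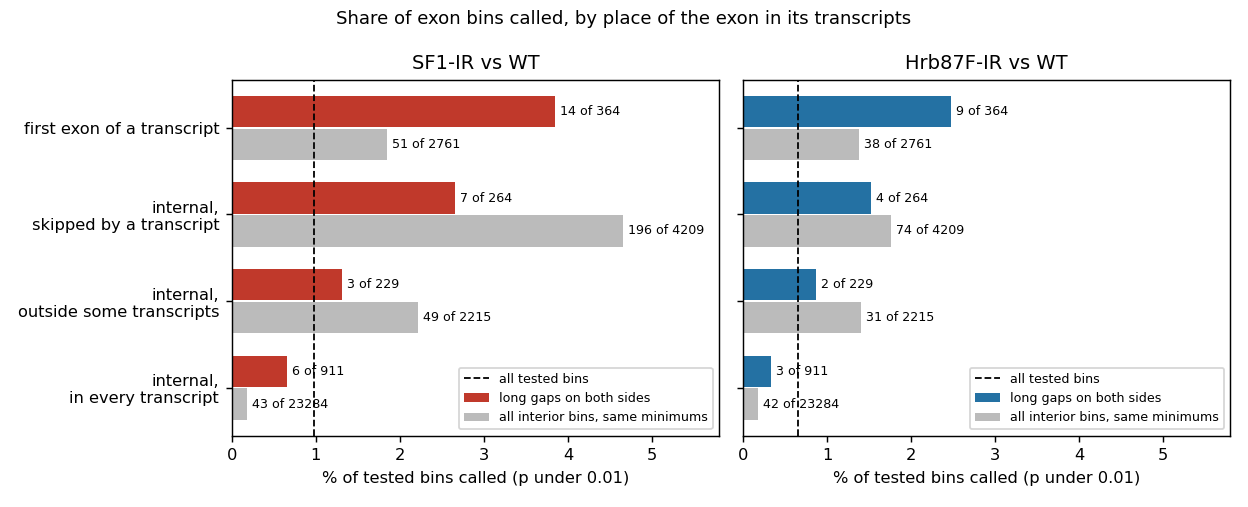
Share of tested exon bins called at an unadjusted p under 0.01 (x axis, percent) by place of the exon in its transcripts, for SF1-IR against WT (left) and Hrb87F-IR against WT (right). Colored bars are exons with gaps of 1000 nt or more on both sides, grey bars all interior bins with the same width and count minimums, and the dashed line all tested bins (0.972% and 0.656%). First exons with long gaps lie above the grey bar on both sides (14 and 9 of 364).

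The most significant rise and the most significant fall in use were both found in genes of the synapse. unc-13 encodes the protein that primes synaptic vesicles for fusion, and its exon E040 (chromosome 4, 909079 to 909184, minus strand, BDGP6.22) is a 106-nt 5′-UTR exon of 1 of 7 transcripts. It had 1542 and 1853 counts in SF1-IR, against 34 and 7 in Hrb87F-IR and 20 and 32 in WT. This was 1.40% and 1.90% of the gene's counts in SF1-IR (95% Wilson intervals 1.33% to 1.47% and 1.81% to 1.98%), against 0.257% and 0.0478% in Hrb87F-IR (0.184% to 0.359% and 0.0231% to 0.0986%) and 0.213% and 0.328% in WT (0.138% to 0.330% and 0.232% to 0.462%). Both SF1-IR libraries stood above the other 4, of which Hrb87F-IR replicate 2 was the lowest. Log2 use in SF1-IR against WT was 2.57 (SE 0.36, adjusted p = 7.48e-08). The gene as a whole was also higher, at 1578.0 and 1239.8 CPM in SF1-IR, against 141.0 and 179.7 CPM in WT (log2 fold change 3.13, adjusted p = 3.71e-04), so that the exon rose beyond an already raised gene. Wilson intervals cover counting error only. Other unc-13 bins, outside the rule and chosen after their values were seen, moved too. Log2 use in SF1-IR against WT was 2.76 in the first bin E041, 0.84 in E028 and 1.00 in E030, but −1.80 in E025. The change in use was thus not particular to E040.

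Snap25 encodes a SNARE protein of the same fusion machinery. Its coding exon E006 (3L, 24210021 to 24210138, plus strand) lies between gaps of 42209 and 43654 nt and is in both transcripts. It took 2.19% and 2.52% of the gene's counts in SF1-IR (Wilson intervals 1.99% to 2.40% and 2.29% to 2.79%), against 8.41% and 10.1% in Hrb87F-IR and 9.61% and 10.4% in WT (8.55% to 10.8% and 9.26% to 11.6%). Log2 use in SF1-IR against WT was −2.10 (SE 0.26, adjusted p = 2.79e-06), and that of E002, which holds 5′-UTR and coding sequence, was −1.97 (SE 0.29, adjusted p = 8.36e-05). The counts of E006 themselves were not lower, with 426 and 382 in SF1-IR, against 299 and 435 in Hrb87F-IR and 260 and 271 in WT. The fall in use came with a step along the gene. With 0.1 CPM added to each mean, the 6 bins upstream of the 43654-nt gap were 1.14 to 1.98-fold as high in SF1-IR as in WT. The 3 bins downstream of it were 6.90 to 7.48-fold as high. The top of the upstream range was E005, a bin of few counts (mean 0.355 CPM in SF1-IR and 0.130 CPM in WT), whose ratio the added 0.1 CPM pulls toward 1. In Hrb87F-IR, with the same addition, all 9 bins lay 0.21 to 0.85 above WT on the log2 scale, with no such step. Of the downstream bins, E007 and E008 are also exons between long introns, and their log2 use of 0.52 and 0.40 was not called (unadjusted p = 0.0159 and 0.0628).

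Both genes are best known from neurons. The 7 measured neuron markers summed to 706.6 and 532.7 CPM in SF1-IR, 658.4 and 666.6 CPM in Hrb87F-IR, and 482.1 and 547.7 CPM in WT, none of the 7 passed the gene test in either knockdown, and none was at 0 in all libraries. Their part in the results of unc-13 and Snap25 was not tested, and in such bulk tissue fewer cells of a type and less RNA per cell cannot be told apart.

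CG10936, a gene with 1 transcript, had the same kind of step. Its exon E007 (2R, 17614900 to 17615135, minus strand) had 68 and 82 counts in SF1-IR, against 75 and 82 in Hrb87F-IR and 79 and 99 in WT, and E008 had 89 and 98 in SF1-IR, against 69 and 70 in Hrb87F-IR and 108 and 95 in WT. Use was 1.03% and 1.17% for E007 in SF1-IR, against 4.32% and 4.82% in WT (log2 use −2.06, SE 0.45, adjusted p = 0.0682), and E008 gave a log2 use of −1.91 (SE 0.43, adjusted p = 0.0907). With 0.1 CPM added to each mean, the 6 bins downstream of a gap of 3318 nt were 2.75 to 3.81-fold as high in SF1-IR as in WT. The 3 upstream bins were 0.689 to 0.898-fold as high on the same scale. A smaller step was also seen in Hrb87F-IR, so that it was not particular to SF1-IR. Against WT on the log2 scale, the upstream bins lay at −0.69 to −0.06 in Hrb87F-IR and the downstream bins at 0.37 to 0.77. Log2 use of E008 in Hrb87F-IR was −1.13, which was not called (unadjusted p = 0.0332). The gene was higher in SF1-IR (93.9 and 88.9 CPM, against 27.6 and 37.8 CPM in WT, log2 fold change 1.49, adjusted p = 0.00409).

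**Figure D2:**
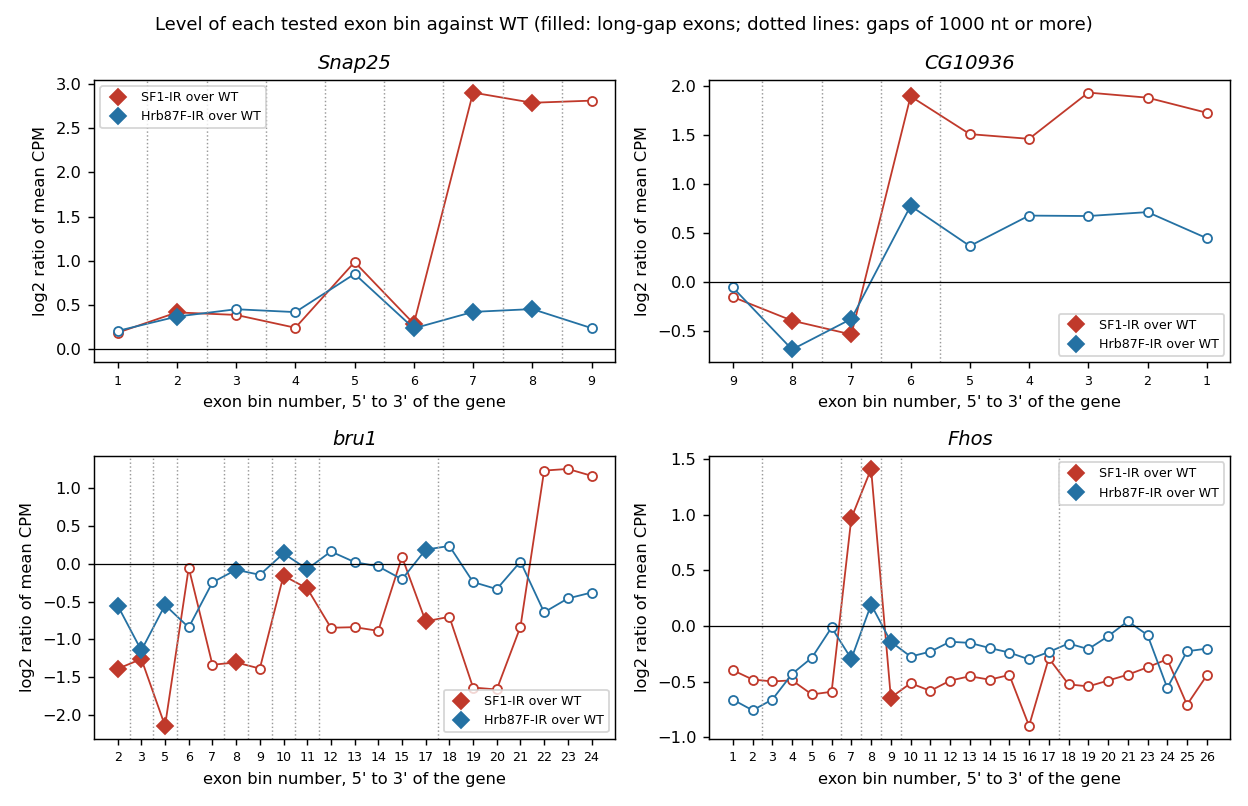
Log2 ratio of mean CPM to WT (y axis, with 0.1 CPM added) for each tested exon bin, in the order of transcription (x axis), in Snap25, CG10936, bru1 and Fhos. Red is SF1-IR and blue Hrb87F-IR, filled diamonds are exons between long introns, and dotted lines mark gaps of 1000 nt or more. In Snap25 the red line steps up by more than the whole range of the blue line between bins 6 and 7, and in Fhos only bins 7 and 8 lie above 0 in SF1-IR.

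The sarcomere list held 18 of the exons, in 8 of its 35 genes in the files, and 4 of the 18 were called in SF1-IR, all used more. The background is 0.645% of all bins, the list median of log2 use was −0.044, and the members were chosen with earlier results known, so that the count describes Fhos, Zasp52 and tn rather than the list. Fhos is a formin that takes part in building thin filaments. Its exon E008 (3L, 8776997 to 8777317, plus strand), which holds 5′-UTR and coding sequence and is in 5 of 9 transcripts, had 636 and 695 counts in SF1-IR, against 241 and 284 in Hrb87F-IR and 175 and 216 in WT. Its use was 0.810% and 0.901% in SF1-IR, against 0.260% and 0.342% in Hrb87F-IR and 0.192% and 0.243% in WT, a log2 use of 1.963 in SF1-IR against WT (SE 0.28, adjusted p = 8.27e-07). The exon before it, the 5′-UTR exon E007, moved the same way (log2 use 1.53, SE 0.40, adjusted p = 0.0836), with 274 and 239 counts in SF1-IR, against 89 and 103 in Hrb87F-IR and 96 and 109 in WT. The next exon, E009, is in every transcript, is also flanked by long gaps, and gave −0.12 (unadjusted p = 0.572). The rise was thus seen in the 2 alternative exons and not in their constitutive neighbor.

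Zasp52 is the PDZ and LIM domain protein of the Z-disc. Its exon E010 (2R, 15770951 to 15771147, minus strand), the last exon of 2 of 21 transcripts, had 2404 and 1621 counts in SF1-IR, against 850 and 587 in Hrb87F-IR and 616 and 747 in WT. This was 0.506% and 0.338% of the gene's counts in SF1-IR, against 0.166% and 0.121% in Hrb87F-IR and 0.138% and 0.170% in WT (log2 use 1.46 in SF1-IR against WT, SE 0.18, adjusted p = 3.39e-07). The gene itself did not pass the test (log2 fold change −0.20, adjusted p = 0.524). The skipped exons E011 and E015 of the gene, which lie outside the rule and were chosen after their values were seen, gave 1.42 and 1.67. tn encodes a TRIM protein of muscle, and its 5′-UTR exon E004 had a use of 1.41% and 1.37% in SF1-IR, against 0.551% and 0.398% in Hrb87F-IR and 0.789% and 0.804% in WT (log2 use 0.80, adjusted p = 0.717). Its 2 knockdowns lay on opposite sides of WT. The call of tn E004 was lost in 8 of 16 other settings, those of Fhos E008 and Zasp52 E010 in none.

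**Figure D3:**
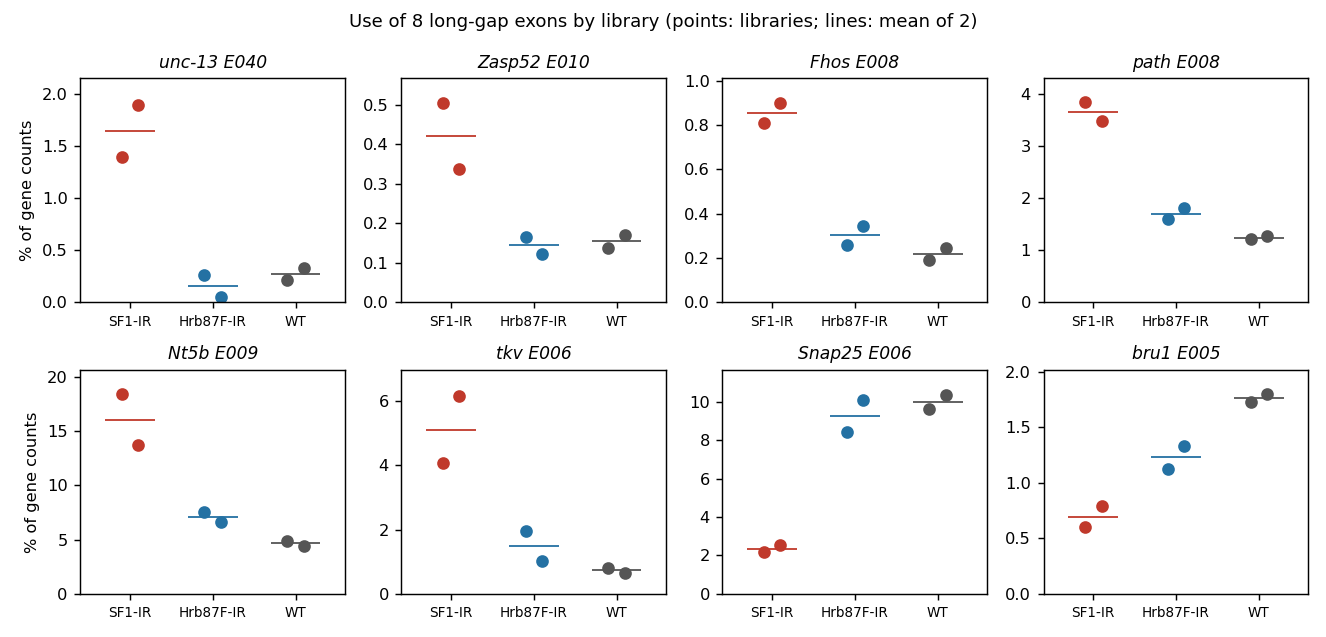
Use of exons called in SF1-IR against WT, as percent of the gene's counts (y axis), in each of the 2 libraries per group (points) with the group mean (line), for SF1-IR, Hrb87F-IR and WT from left to right. The exons were chosen for their call, and unc-13 E040 lies at 1.40% and 1.90% in SF1-IR, against 0.213% and 0.328% in WT.

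Genes of RNA-binding proteins held 68 of the exons in 18 genes, and 4 were called in SF1-IR, 1 used more and 3 less (over all bins 0.645% and 0.327% were called so). bru1 encodes the splicing factor that directs the fibrillar splicing program of flight muscle. Its skipped exon E005 (2L, 12240868 to 12241780, plus strand), with 5′-UTR and coding sequence, had 220 and 293 counts in SF1-IR, against 681 and 785 in Hrb87F-IR and 949 and 907 in WT. Its use was 0.598% and 0.791% in SF1-IR, against 1.12% and 1.33% in Hrb87F-IR and 1.72% and 1.80% in WT, and the 3 groups did not overlap. Log2 use against WT was −1.35 in SF1-IR (SE 0.22, adjusted p = 7.95e-05) and −0.53 in Hrb87F-IR, which was not called (unadjusted p = 0.0314). The first exon of 1 bru1 transcript, E002, was used less in both knockdowns, with 4.02% and 3.47% in SF1-IR, against 4.12% and 3.60% in Hrb87F-IR and 5.64% and 5.59% in WT (log2 use −0.58 with unadjusted p = 0.00486 and −0.54 with unadjusted p = 0.00904). The bins at the other end of bru1, E022 to E024, are not flanked by long gaps and were chosen after their values were seen. Their log2 use in SF1-IR was 2.00 to 2.09. E007 to E009, in 9 of 10 transcripts and also chosen after their values were seen, gave −0.57 to −0.49. The fall was thus not confined to E002 and E005. The bins in every transcript, E012 to E014, E017 and E018, gave −0.07 to 0.12. bru1 as a gene had 525.4 and 470.2 CPM in SF1-IR, against 827.9 and 926.1 CPM in WT (log2 fold change −0.82, adjusted p = 0.0103, edgeR's quasi-likelihood test). For Rbp6, a Musashi-family protein, E022 fell in use (12.3% and 15.8% in SF1-IR, against 21.4% and 20.8% in WT, log2 use −0.61, unadjusted p = 0.00396) and E017, a first exon, rose (log2 use 1.05, unadjusted p = 0.00463), so that 2 exons of the gene moved in opposite directions. The call of E022 was lost in 6 of 16 other settings. Other Rbp6 bins, chosen after their values were seen, moved too. E013 to E016, which are in every transcript, gave −0.68 to −0.44 in SF1-IR, so that the fall was not particular to E022. The bin E002 at the end of 2 transcripts gave 0.75 (unadjusted p = 2.54e-04).

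Membrane and signalling genes gave single exons. path encodes an amino acid transporter, and its skipped 5′-UTR exon E008 (3L, 9500707 to 9501056) had 722 and 594 counts in SF1-IR, against 221 and 242 in Hrb87F-IR and 208 and 242 in WT, with a use of 3.84% and 3.47% in SF1-IR, against 1.59% and 1.80% in Hrb87F-IR and 1.2% and 1.27% in WT (log2 use 1.57, SE 0.26, adjusted p = 6.55e-04). tkv encodes a type I receptor for Dpp, and its exon E006 (2L, 5243982 to 5244139, minus strand), the first of 1 of 4 transcripts, had 103 and 156 counts in SF1-IR, against 42 and 25 in Hrb87F-IR and 16 and 11 in WT (log2 use 2.77, SE 0.47, adjusted p = 0.0352). It overlaps a non-coding gene on the other strand, CR14033, and the strand setting of the counting is not given in the sources used here, so that the source of these reads is uncertain. pan encodes the TCF transcription factor of Wnt signalling, and its exon E014 took 21.4% and 20.9% of the counts in SF1-IR, against 11.4% and 11.5% in Hrb87F-IR and 13.9% and 14.8% in WT (log2 use 0.56, unadjusted p = 0.00664). Of the 84 tested exons in the signalling list, 3 were called in SF1-IR, all used more, beside 0.645% of all bins. Of 70 in genes of ion channels 1 was called, of 59 in genes of transcription factors 1, and of 87 in genes of adhesion and guidance, 17 of attachment and 29 of the cytoskeleton none, beside 0.972% of all bins.

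A further group had an alternative first exon that was taken up by more of the gene's counts in SF1-IR. Nt5b E009 had 630 and 564 counts in SF1-IR and 57 and 49 in WT, and its use was 18.4% and 13.8% in SF1-IR, against 7.53% and 6.64% in Hrb87F-IR and 4.91% and 4.43% in WT (log2 use 1.77, SE 0.30, adjusted p = 7.44e-04). The upstream Nt5b bins E010 and E014, outside the rule and chosen after their values were seen, gave −2.76 and −2.20, and the gene rose by 1.42 on the log2 scale (adjusted p = 0.00467). SmydA-8 E003 took 29.7% and 27.4% in SF1-IR, against 16.6% and 18.9% in Hrb87F-IR and 10.8% and 11.9% in WT (log2 use 1.31, adjusted p = 0.110), with Hrb87F-IR between SF1-IR and WT. CG43078 E008 took 0.630% and 0.671% in SF1-IR, against 0.187% and 0.165% in Hrb87F-IR and 0.357% and 0.267% in WT. It was used more in SF1-IR (log2 use 1.079, SE 0.22, adjusted p = 0.00245) and less in Hrb87F-IR (−0.80, SE 0.22, adjusted p = 0.387).

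A few exons had counts in SF1-IR and almost none in WT. sick, a regulator of actin, had 34 and 27 counts of its exon E002 in SF1-IR, against 0 and 0 in Hrb87F-IR and 0 and 0 in WT (unadjusted p = 0.00110, adjusted p = 0.236). Its mean level over the 2 SF1-IR libraries was 8.25-fold that of the 3 counts per WT library that a count of 0 allows. Those 3 counts are a share of up to 0.333% and 0.319% in WT, and 0.230% and 0.233% in Hrb87F-IR. Fur1 encodes a furin-type protease, and its skipped 5′-UTR exon E018 had 49 and 57 counts in SF1-IR, against 0 and 0 in Hrb87F-IR and 3 and 0 in WT (unadjusted p = 0.00119, adjusted p = 0.247). Dbp80, a DEAD-box helicase, was not of this kind, since its exon was also present in WT. It had 307 and 327 counts at E011 in SF1-IR, against 53 and 60 in Hrb87F-IR and 76 and 154 in WT. Its log2 use was 1.38 in SF1-IR (unadjusted p = 7.84e-04) and −1.31 in Hrb87F-IR (unadjusted p = 0.00215). WT replicate 2 lay between SF1-IR and WT replicate 1, and without WT replicate 1 the SF1-IR value was 0.95 and no longer called, while without WT replicate 2 the Hrb87F-IR value was −0.64 and no longer called. The SF1-IR call was also lost without SF1-IR replicate 2, and without it and WT replicate 1 together (0.775), and the Hrb87F-IR call without either Hrb87F-IR library. In all, 5 of the 31 exons called in SF1-IR had 3 counts or fewer in each WT library. Of the SF1-IR calls named here and followed through the other settings, 13 were kept in each, those of unc-13, Snap25, CG10936, path, Nt5b, SmydA-8, CG43078, tkv, bru1 E005, Zasp52 E010 and Fhos E008. Leaving out 1 library lost the call of Fhos E007 (SF1-IR replicate 1), of sick E002 (WT replicate 1) and of Fur1 E018 (SF1-IR replicate 2 or WT replicate 2), and those of bru1 E002, Rbp6 E022, tn E004, nAChRalpha3 E012, Epac E019 and nrm E029 were lost without any of several libraries.

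In Hrb87F-IR, 18 of the 1780 exons were called against WT (1.01%), in 17 genes, beside 0.656% of all tested bins. Use was higher in Hrb87F-IR for 7 (0.236% of all bins were called higher) and lower for 11 (0.420% were called lower). One adjusted p fell under 0.05. Of the 18, 14 had 10 or more counts in every library, and these spanned log2 use from −2.29 to 2.38. Exons with short gaps were called in 20 of 10152 cases (0.197%) and all interior bins of the same minimums in 210 of 35742 (0.588%). The number called depended on single libraries, and refits that left out a library called fewer or more than 18. Leaving out a library of Hrb87F-IR or WT leaves that group without a replicate. The shares of all bins called in these refits are not given here, so that they show nothing particular to these exons. A fit without the pair of libraries rich in testis RNA (SF1-IR replicate 2 and WT replicate 1) leaves WT without a replicate. Most of the 18 were not called in it while other exons were, so that it does not show which of the 18 hold.

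First exons lay lower as a class. The 364 first exons with long gaps had a median log2 use of −0.26 in Hrb87F-IR, beside −0.102 for first exons among all interior bins and −0.067 for the first bins of all genes. In the 228 with 10 or more counts in every library, the median against the WT mean was −0.201 and −0.264 in the 2 Hrb87F-IR libraries and 0.025 and −0.126 in the 2 SF1-IR libraries. Of the 9 first exons called in Hrb87F-IR, 7 were used less, as were 28 of the 38 called among first exons of all interior bins. Exons in every transcript had a median of 0.010 and gave 3 calls among 911.

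The clearest of the 18 was CG43897 E008 (3L, 9821668 to 9821908, plus strand), a first exon with 5′-UTR and coding sequence in 3 of 17 transcripts. It had 1472 and 1014 counts in SF1-IR, against 853 and 758 in Hrb87F-IR and 1319 and 1231 in WT. Its use was 0.322% and 0.239% in SF1-IR, against 0.167% and 0.148% in Hrb87F-IR (Wilson intervals 0.156% to 0.178% and 0.138% to 0.159%) and 0.370% and 0.376% in WT (0.351% to 0.391% and 0.356% to 0.398%). Log2 use in Hrb87F-IR against WT was −1.25 (SE 0.16, adjusted p = 2.46e-04), and it was called in each of the other settings tried. Another first exon of the gene, E004, gave 0.20 in Hrb87F-IR (unadjusted p = 0.284) and 0.51 in SF1-IR (unadjusted p = 0.00728), so that the fall was not shared by both.

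Muscle genes among the 11 exons used less in Hrb87F-IR had smaller changes. Mef2, the myogenic transcription factor whose regulatory sequence drives the Gal4 used here, had at its 5′-UTR exon E016 (2R, 9928900 to 9929615, minus strand) 17.1% and 12.3% of its counts in SF1-IR, against 12.3% and 11.8% in Hrb87F-IR and 18.1% and 18.2% in WT (log2 use −0.59 in Hrb87F-IR, SE 0.17, unadjusted p = 0.00503). Zasp52 E026, which is in 19 of 21 transcripts and holds 5′-UTR and coding sequence, had 1.15% and 1.10% in Hrb87F-IR and 1.70% and 1.55% in WT (log2 use −0.52, unadjusted p = 0.00628). Svil encodes the actin-binding protein supervillin, and E011 gave −0.66 (unadjusted p = 0.00544), with 2.77% and 2.42% in Hrb87F-IR and 3.41% and 4.73% in WT. None of these 3 had an adjusted p under 1, and the calls of Mef2 E016 and Svil E011 were each lost in 4 of 16 other settings and that of Zasp52 E026 in 6. Outside muscle genes, lilli, an AF4/FMR2 family protein, had 25 and 10 counts at E003 in Hrb87F-IR, against 85 and 54 in WT (log2 use −2.29, unadjusted p = 0.00218). blot, an SLC6-type transporter, had 6.35% and 6.06% of its counts at E008 in Hrb87F-IR, against 11.4% and 14.5% in WT (−1.07, unadjusted p = 0.00285). CG43078 E007, next to the exon described above, had 0.295% and 0.203% in Hrb87F-IR and 0.404% and 0.383% in WT (−0.64, unadjusted p = 0.00919). CG43867 E012 had 0 and 0 counts in Hrb87F-IR, which allows shares of up to 0.254% and 0.260%, and 7 and 2 counts in WT.

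**Figure D4:**
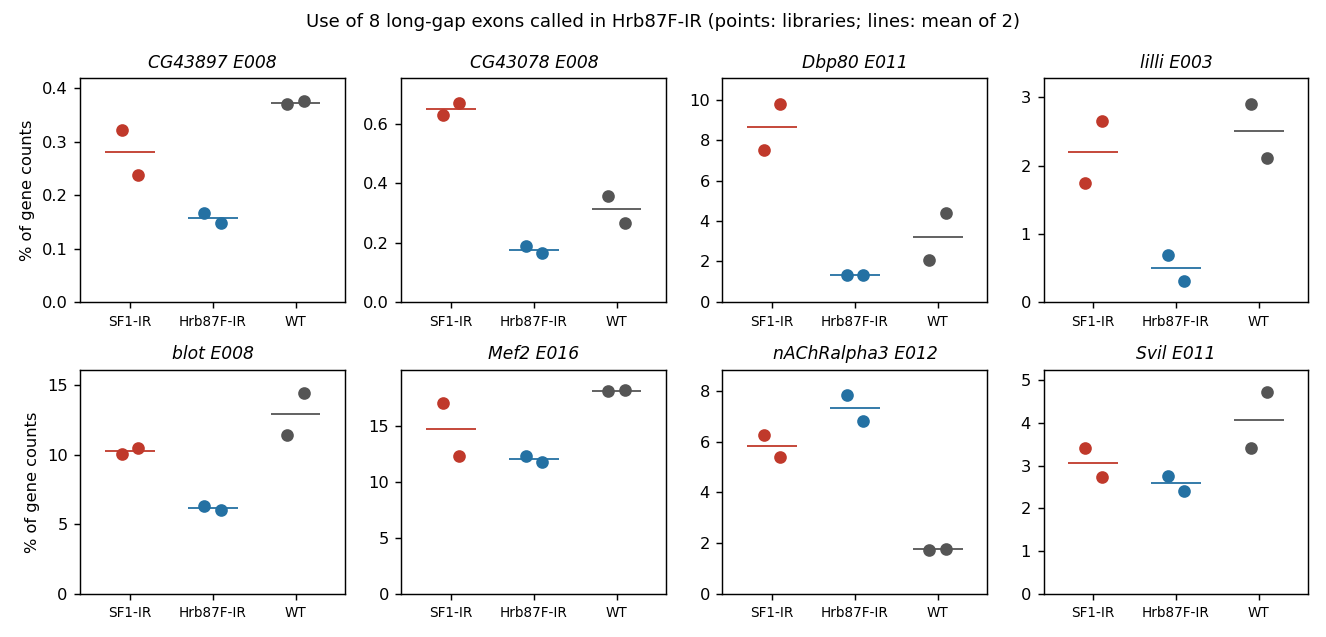
Use of exons called in Hrb87F-IR against WT, as percent of the gene's counts (y axis), in each of the 2 libraries per group (points) with the group mean (line), for SF1-IR, Hrb87F-IR and WT from left to right. CG43897 E008 lies at 0.167% and 0.148% in Hrb87F-IR, below the other 4 libraries.

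Exons used more in Hrb87F-IR were mostly of low count. nAChRalpha3, an acetylcholine receptor subunit, had at its 5′-UTR exon E012 114 and 81 counts in SF1-IR, against 97 and 91 in Hrb87F-IR and 16 and 16 in WT. Log2 use was 2.07 in Hrb87F-IR (unadjusted p = 0.00145) and 1.75 in SF1-IR (unadjusted p = 0.00656), and both knockdowns lay well above WT. Pde1c E006, in a phosphodiesterase gene, had 12.98% and 12.4% in Hrb87F-IR and 7.45% and 8.89% in WT (0.63, unadjusted p = 0.00908). nrm, an immunoglobulin-domain adhesion protein, had at E029 1.90% and 1.84% in Hrb87F-IR and 1.17% and 1.23% in WT (0.64, unadjusted p = 0.00741, and 0.67 in SF1-IR with unadjusted p = 0.00568). Epac E019, Shawl E004 and dar1 E005 had 0 and 0 counts in WT, and 16 and 4, 2 and 12, and 11 and 10 counts in Hrb87F-IR. Their mean levels over the 2 Hrb87F-IR libraries were 2.98, 1.95 and 3.04-fold that of 3 counts per WT library. For Epac E019 and Shawl E004 the mean rested mostly on 1 library, and Shawl E004 in Hrb87F-IR replicate 1 was not above that level. Among the calls named for Hrb87F-IR, that of CG43897 E008 alone was kept when each library was left out in turn. The call of nAChRalpha3 E012 was lost without Hrb87F-IR replicate 1 (log2 use 1.964), and those of blot E008, Mef2 E016, Svil E011, Zasp52 E026, nrm E029, Pde1c E006 and bru1 E002 without either Hrb87F-IR library.

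The WT libraries are shared by both contrasts, and agreement between the contrasts is therefore not independent. Called in both were 6 exons. bru1 E002 was used less in both, Epac E019, nAChRalpha3 E012 and nrm E029 more in both, and CG43078 E008 and Dbp80 E011 more in SF1-IR and less in Hrb87F-IR. Compared directly, SF1-IR differed from Hrb87F-IR in 34 exons between long introns, beside 1.10% of all bins. Use was higher in SF1-IR for 27 (0.793% of all bins) and lower for 7 (0.305%). An adjusted p under 0.05 was reached by 13, the strongest being unc-13 E040 (log2 use 3.44, SE 0.37, adjusted p = 3.45e-12).

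Calls were found in each class of gap length. With a shorter gap of 1000 to 2000 nt, 14 and 9 of 766 exons were called in SF1-IR and in Hrb87F-IR, with 2001 to 5000 nt 8 and 6 of 589, with 5001 to 10000 nt 5 and 2 of 263, and with more than 10000 nt 4 and 1 of 162. Just outside the rule, bins with a shorter gap of 900 to 999 nt gave 4 and 5 calls among 159 (2.52% and 3.14%). Just inside it, from 1000 to 1099 nt, there were 2 and 2 among 110 (1.82% and 1.82%). Shares above those of all bins were thus not particular to gaps of 1000 nt or more, and the differences between these shares were not tested. The 5 exons with the longest gaps had few counts and none was called. Myo81F, a myosin gene in the heterochromatin of chromosome 3, held 3 of them. Its E017, between gaps of 174914 and 169882 nt, had 32 and 20 counts in SF1-IR, against 8 and 18 in Hrb87F-IR and 8 and 13 in WT (log2 use 0.87 in SF1-IR, SE 0.96, unadjusted p = 0.449), a difference not detectable at this depth. CG17684 E013 and lovit E006, with shorter gaps of 65358 and 59000 nt, gave 0.03 and 0.36 in SF1-IR, whereas the values in Hrb87F-IR were −0.48 and 0.01.

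Of the 5 most abundant exons of the kind, 3 lie in 1 gene. Scp1 encodes a sarcoplasmic calcium-binding protein, and its 3 exons E004, E005 and E006 are in both transcripts. E006 had 269400 and 246974 counts in SF1-IR, against 106023 and 132601 in Hrb87F-IR and 102864 and 98542 in WT. Its share of the gene was 25.3% ± 0.0327 in SF1-IR, 25.6% ± 0.466 in Hrb87F-IR and 25.1% ± 0.218 in WT (SD, n = 2 each). Log2 use of the 3 exons stayed between −0.08 and 0.02 in SF1-IR. For Hrb87F-IR it ran from −0.18 to 0.03. The gene nevertheless rose by 1.04 on the log2 scale in SF1-IR (adjusted p = 0.00971). The level of Scp1 thus differed without a difference in use of its long-gap exons that passed the test. In the metabolic genes kdn (citrate synthase) and PyK (pyruvate kinase), exon E002 is the first exon of 1 of 2 transcripts. kdn E002 had 10.5% and 9.74% in SF1-IR, against 12.3% and 11.3% in Hrb87F-IR and 12.2% and 12.9% in WT (log2 use −0.31 in SF1-IR, SE 0.16, unadjusted p = 0.0797). PyK E002 had 8.67% and 8.53% in SF1-IR, against 10.3% and 10.4% in Hrb87F-IR and 11.8% and 11.5% in WT (−0.44 in SF1-IR, SE 0.10, unadjusted p = 0.0167), which was not called although the libraries of SF1-IR and WT did not overlap.

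As genes, the 956 hosts of these exons were seldom changed. In SF1-IR 18 passed an adjusted p under 0.01 (edgeR's quasi-likelihood test), 15 higher and 3 lower, which is 1.88% of the hosts beside 2.68% of all genes tested (1.27% higher and 1.41% lower). In Hrb87F-IR none passed, beside 0.0596% of all genes tested (0.0170% higher and 0.0425% lower). Of the hosts, 211 had an unadjusted p under 0.05 and DESeq2 called 48. The shares of all genes by these measures are not given here, so that these counts show nothing particular to the hosts. In SF1-IR the hosts had a median log2 fold change of 0.109, against −0.015 over all genes. For Hrb87F-IR these medians were 0.168 and −0.030. Of the 31 exons called in SF1-IR, 6 lay in a gene that passed the gene test, and of the 18 called in Hrb87F-IR none did.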

How the data were processed

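The deposited counts per exon bin are raw counts of 6 libraries, made by the authors with STAR 2.7.3a, SAMtools 1.1 and featureCounts of Subread 2.0.0 (submitters' processing notes, which also name DESeq2 1.32.0), on BDGP6.22 with annotation dmel_r6.32. Positions and transcripts came from the deposited exon comparison. Its fold changes and p-values were not used. From that file 78 wrapped fragments were joined and 21 repeats dropped. Another 8 per-sample columns were not used. Gene levels are sums of exon bins, because the WT columns of the deposited counts per gene did not match them. Coding and UTR classes came from BDGP6.54, in which 1778 of the 1804 exons (98.6%) match an exon exactly.

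Bins were fitted in edgeR 4.0.16 (R 4.3.3; TMM, filterByExpr, glmQLFit robust, diffSpliceDGE), with 6 libraries in 1 fit and no covariate, and DEXSeq was not used here. Genes were tested with glmQLFTest at an adjusted p under 0.01. CPM are scaled by TMM. Methods were tested on simulated data. Alternatives used limma 3.58.1 and DESeq2 1.42.0. Tables and figures were made with Python 3.11.15, numpy 2.4.6, pandas 2.3.3 and matplotlib 3.10.9.

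The exons and gene lists were chosen with earlier results of these data known. Named exons were, per knockdown and direction, up to 12 called exons in order of p with at most 2 per gene, the 5 with the longest gaps, the 5 with the highest CPM, called exons of sarcomere genes, and the 5 with the smallest p between knockdowns. Others named were chosen after their values were seen: exons of list genes or with few counts, and neighbors of named exons. Not every called exon is named, and 1 that met the rule is not reported here.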

Additional observations from a re-analysis of the deposited data

Results flagged for a closer look

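In 13 exons the difference in log2 use between SF1-IR and Hrb87F-IR had an adjusted p under 0.05 (edgeR's diffSpliceDGE, SF1-IR against Hrb87F-IR) and 1 or both knockdowns were called against WT. Use was higher in SF1-IR by 3.44 on the log2 scale in unc-13 E040, by 1.88 in CG43078 E008, by 1.55 in Zasp52 E010, by 2.69 in Dbp80 E011, by 1.53 in tn E004, by 1.52 in Fhos E008, by 0.89 in pan E014, by 1.12 in path E008, by 1.60 in Fhos E007 and by 0.85 in CG43897 E008. Fur1 E018 gave 7.91, a fitted value that rests on 0 and 0 counts in Hrb87F-IR and is no bound. Snap25 E006 and Snap25 E002 were both at −1.997. The adjusted p ran from 3.45e-12 (unc-13 E040) to 0.0485 (CG43897 E008). Each knockdown had 2 libraries. No cause was tested.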

How the results depend on the processing

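With 2 libraries per group, counts of calls depended on the method. Of the 35 called exons followed through each setting, none reversed. They were chosen by their calls in these same libraries, and each setting refits the same counts, so that a reversal was unlikely from the start. The 31 exons called in SF1-IR, the 18 in Hrb87F-IR and the 34 between the knockdowns became 54, 40 and 47 with limma's voom and diffSplice, 124, 128 and 135 with DESeq2, 60, 35 and 60 with a gap minimum of 500 nt, 17, 9 and 19 with 2000 nt, and 10, 1 and 13 at an adjusted p under 0.05. With at least 10 counts in every library for the fit they were 39, 28 and 43, and without a filter 29, 12 and 31. Without SF1-IR replicate 2 and WT replicate 1, chosen after seeing the data, they were 36, 37 and 52. Leaving out 1 library at a time gave 23 to 32, 7 to 20 and 16 to 46, and medians of log2 use of −0.034 to 0.029, −0.103 to −0.031 and 0.008 to 0.094. The median in SF1-IR was 0.026 with voom. The shares of all bins called in each setting are not given here, so that these counts describe the settings and nothing particular to exons between long introns.

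Same-numbered libraries did not pair (correlations of their deviations −0.511, −0.346 and 0.299). With a replicate block 22, 9 and 24 exons were called, and 3 and 0 host genes. With the WT numbers crossed, added after seeing the data, the block gave 49, 36 and 55 exons and 75 and 25 host genes.

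Host genes, 18 in SF1-IR and 0 in Hrb87F-IR, became 27 and 1 with upper quartile factors, 32 and 3 without a filter, 57 and 14 with at least 10 counts in every library, 80 and 48 with DESeq2, 114 and 82 with the deposited counts per gene, 44 and 27 without both libraries rich in testis RNA, and 2 in SF1-IR with only SF1-IR and WT in the fit. Leaving out 1 library gave 3 to 7 and 0. The shares of all genes called in each setting are not given here, so that these counts describe the settings and nothing particular to the hosts. The causes were not tested.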
